A study of Mus musculus with 6 samples.

Results

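The glucocorticoid receptor gene Nr3c1 and 6 genes that the receptor is known to induce, Fkbp5, Tsc22d3, Sgk1, Klf9, Zbtb16 and Errfi1, were followed in bulk RNA sequencing of breast tumors. The 7 genes were chosen by name as the receptor and a set of its textbook targets, with earlier results of these data known. All 7 are among the 16763 genes of the deposited table. The tumors had been induced in BALB/c mice with 4T1, a mouse mammary carcinoma cell line, in both groups, and the sex is given as male. The model group carried such tumors without the drug, and the other group was given DMDD carried in liposomes, with 3 libraries in each. The labels name DMDD only by its abbreviation, and dose, route, duration, the age of the mice and any vehicle given to the model group are not stated in the labels. Nothing in the labels ties a library to a mouse, so the p-values reflect only how far these libraries differ, which may be technical.

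Glucocorticoids such as corticosterone cross the cell membrane and bind the receptor, which waits in the cytoplasm in a complex with HSP90 and its co-chaperones. The bound receptor moves to the nucleus, where pairs of receptors sit on a palindromic DNA element and raise transcription of nearby genes, while inflammatory genes driven by NF-kB and AP-1 are held down. The RNA levels of targets such as Fkbp5 and Tsc22d3 are widely used as a readout of hormone exposure, and enzymes within a tissue can regenerate or inactivate the hormone locally.

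The element itself shows in the promoter sequence of one of these genes. RefSeq start windows (250 bases before to 50 after a transcript start, build GRCm38.p6, not the build of the counts) were matched by symbol for 5 of the 7 genes, giving 13 windows for Fkbp5, Tsc22d3, Sgk1, Klf9 and Errfi1. They were searched on both strands for the palindrome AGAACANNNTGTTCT and for either of its arms, AGAACA and TGTTCT, which the palindrome contains. The palindrome was found in 1 of the 13 windows, at a start of Sgk1 on chromosome 10, where it reads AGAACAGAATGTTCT and begins 189 bases before that start (chr10:21993701-21993715). Of all 32817 mouse windows of that length, 3 (0.00914%) hold it. At least 1 arm was found in 4 of the 13 windows, against 19.0% of all windows. Those 4 were windows of Sgk1, which has 6 windows in all, and of Tsc22d3, with none in Fkbp5, Klf9 or Errfi1. Windows of the same gene are not independent, so the share is no measure of the set. The sequences given are that Sgk1 window, the Tsc22d3 window with a single arm, and the only Klf9 window, which holds neither and belongs to the gene with the largest difference between the groups. Capitals mark the palindrome and the arms, and each sequence is written 5′ to 3′ on the strand of its gene.
Sgk1, chr10:21993640-21993939, plus strand: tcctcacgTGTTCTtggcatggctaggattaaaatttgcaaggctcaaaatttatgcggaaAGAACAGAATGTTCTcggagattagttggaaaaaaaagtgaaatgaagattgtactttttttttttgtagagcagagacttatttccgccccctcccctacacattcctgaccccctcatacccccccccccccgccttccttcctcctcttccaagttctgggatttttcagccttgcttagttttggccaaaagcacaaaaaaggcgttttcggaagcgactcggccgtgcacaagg
Tsc22d3, chrX:140600473-140600772, minus strand: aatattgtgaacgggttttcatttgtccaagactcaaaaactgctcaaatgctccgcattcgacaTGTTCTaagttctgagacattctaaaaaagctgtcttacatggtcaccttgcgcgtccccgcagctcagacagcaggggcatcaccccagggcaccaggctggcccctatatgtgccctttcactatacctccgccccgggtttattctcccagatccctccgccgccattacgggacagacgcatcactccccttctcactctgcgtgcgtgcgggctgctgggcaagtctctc
Klf9, chr19:23140976-23141275, plus strand: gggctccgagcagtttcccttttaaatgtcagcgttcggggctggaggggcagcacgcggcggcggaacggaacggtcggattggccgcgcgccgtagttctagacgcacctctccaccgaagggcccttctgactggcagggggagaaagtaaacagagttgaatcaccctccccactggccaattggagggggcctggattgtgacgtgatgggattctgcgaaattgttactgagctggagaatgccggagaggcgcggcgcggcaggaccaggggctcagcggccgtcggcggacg
A match of letters is a description of the window and says nothing of whether the receptor was bound there in these tumors.

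Library totals ran from 13037500 to 15616840 counts, so that 3 counts stood for 0.193 to 0.230 CPM (each count relative to its library total, scaled by TMM), a limit that covers counting error only. Epithelial tumor cell markers were all present (10 of 10 genes, summing to 3920 to 6540 CPM in the model libraries and 3390 to 4530 CPM in the DMDD liposome libraries), none of them at 0 in any library. With all 6 libraries edgeR's quasi-likelihood test called 0 of 12891 genes at an adjusted p under 0.05 (0%), limma-voom called 0 and DESeq2 called 59. Without model replicate 1, edgeR called 112 of 13159 (0.851%), and without any other single library it called 0.

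In the DMDD liposome tumors none of the 6 genes of the set that could be tested passed the test over all genes by edgeR, DESeq2 or limma-voom. Klf9 differed most, at 2.05-fold higher in DMDD liposome, and was called only when model replicate 1 was left out. The receptor's own gene differed by 1.08-fold, with an interval of 0.901-fold to 1.29-fold. Tsc22d3 and Fkbp5 lay 1.29-fold and 1.14-fold higher, Errfi1 0.815-fold and Sgk1 0.979-fold, each with an interval that includes no change, and Zbtb16 was close to the counting limit. At an unadjusted p under 0.05 edgeR took 1 of the 6, Klf9, against 7.65% of all genes tested, and for 0 of the 6 were the groups free of overlap, against 12.9% of all genes tested. In all, 4 of the 6 had a positive and 2 a negative log2 fold change, with a median of 0.15 beside 0.01 over all genes tested.

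Nr3c1 encodes the receptor. It measured 71.8, 58.9 and 63.8 CPM in model replicates 1 to 3 and 74.1, 67.0 and 68.5 CPM in DMDD liposome replicates 1 to 3. All 6 libraries lay within a narrow band and the groups overlapped, with means of 64.8 ± 6.51 CPM and 69.9 ± 3.74 CPM (SD, n = 3 each). The log2 fold change was 0.11 ± 0.11 (SE; edgeR adjusted p = 0.834), and between 0.04 and 0.19 without any 1 library. Its 95% interval ran from -0.15 to 0.37, the narrowest of the set, and the biological coefficient of variation that edgeR estimated for it, 0.125, was lower than that of most genes tested.

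Fkbp5 encodes FKBP51, an immunophilin that joins the HSP90 complex, lowers the receptor's affinity for hormone and so closes a short feedback loop. Its level was 175, 210 and 204 CPM in the model libraries and 199, 173 and 302 CPM in the DMDD liposome libraries. DMDD liposome replicate 3 was the highest of the 6 and DMDD liposome replicate 2 the lowest. The log2 fold change of 0.19 ± 0.21 (SE; edgeR adjusted p = 0.842, 95% interval -0.29 to 0.68) turned to -0.08 without DMDD liposome replicate 3, and was 0.12 without model replicate 1 and 0.34 without DMDD liposome replicate 2. DMDD liposome replicate 3 also held the most skeletal muscle RNA. Of 11 muscle markers 10 were in the table, with Myh4 at 0 in some libraries. They summed to 288 CPM in that library, to 149 and 34.6 CPM in DMDD liposome replicates 1 and 2 and to 48.2 to 65.5 CPM in the model libraries. The part of muscle RNA in the Fkbp5 level was not tested. In bulk tumor RNA, fewer cells of a type and less RNA per cell cannot be told apart.

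Tsc22d3 encodes GILZ, a leucine zipper protein that restrains NF-kB and AP-1 and carries much of the anti-inflammatory action of the hormone in leukocytes. It measured 56.2, 71.3 and 80.0 CPM in the model libraries and 107, 66.0 and 95.5 CPM in the DMDD liposome libraries. DMDD liposome replicates 1 and 3 were above every model library, while DMDD liposome replicate 2 lay inside the model range. The log2 fold change was 0.37 ± 0.20 (SE; edgeR adjusted p = 0.692, 95% interval -0.10 to 0.85), and it was 0.22 without DMDD liposome replicate 1, 0.24 without model replicate 1 and 0.54 without DMDD liposome replicate 2. T and NK cell markers, of which 9 of 10 were in the table and Klrb1c was at 0 in some libraries, were also higher in DMDD liposome replicates 1 and 3 than in replicate 2. They summed to 73.9, 20.5 and 77.2 CPM in DMDD liposome replicates 1 to 3 and to 30.7, 29.4 and 48.1 CPM in the model libraries. Skeletal muscle markers likewise were lowest in replicate 2 of that group, at 149, 34.6 and 288 CPM in DMDD liposome replicates 1 to 3. In model replicates 1 to 3 the muscle markers summed to 48.2, 52.3 and 65.5 CPM. The part of either cell type in the Tsc22d3 level was not tested.

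Sgk1, the serum and glucocorticoid-regulated kinase that acts on ion channels and cell survival, was the target whose start window holds the palindrome shown above. It measured 143, 101 and 137 CPM in the model libraries and 84.6, 153 and 135 CPM in the DMDD liposome libraries. Both the lowest and the highest library were of the DMDD liposome group. The log2 fold change was -0.03 ± 0.23 (SE; edgeR adjusted p = 0.984, 95% interval -0.57 to 0.51), and it lay on the positive side without model replicate 1, without model replicate 3 and without DMDD liposome replicate 1, at 0.06, 0.02 and 0.18.

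Errfi1 encodes MIG6, an inhibitor of the EGF receptor that is induced by both growth factors and glucocorticoids. It measured 391, 323 and 498 CPM in the model libraries and 246, 380 and 361 CPM in the DMDD liposome libraries. The highest library was model replicate 3 and the lowest DMDD liposome replicate 1. The log2 fold change was -0.30 ± 0.21 (SE; edgeR adjusted p = 0.767, 95% interval -0.79 to 0.20). It was negative without each library in turn, between -0.44 and -0.12.

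Klf9, a Krüppel-like zinc finger transcription factor that responds to glucocorticoids and to thyroid hormone, measured 29.1, 9.87 and 10.9 CPM in model replicates 1 to 3. In DMDD liposome replicates 1 to 3 it measured 28.9, 40.6 and 32.3 CPM. Model replicates 2 and 3 were far below the rest, and model replicate 1 lay just above the lowest DMDD liposome library, so the groups overlapped by that one pair. The means were 16.6 ± 10.8 CPM and 33.9 ± 6.04 CPM (SD, n = 3 each), and the log2 fold change was 1.03 ± 0.41 (SE; edgeR unadjusted p = 0.0361, adjusted p = 0.630), rank 738 by p among the 12891 genes tested. The authors' deposited table lists Klf9 at -1.02 (log2, model relative to DMDD liposome) with an adjusted p of 0.339, and it calls 0 of the 7 genes, against 0.346% of the genes it lists.

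Without model replicate 1 the Klf9 difference was 3.27-fold, a log2 fold change of 1.71 ± 0.19 (edgeR adjusted p = 0.0298, 95% interval 1.25 to 2.17), rank 25 by p among 13159 genes. DESeq2 without that library gave 1.70 (adjusted p = 2.05e-10), in a fit where 6.31% of genes were called. Over all alternatives the adjusted p ran from 2.05e-10 to 0.999. Leaving out model replicate 2 or 3 instead gave 0.76 and 0.79, neither of them called, so the value depends on which model libraries are kept. Klf9 was the 1 member called without model replicate 1, and the remaining 5 tested had edgeR adjusted p values from 0.450 to 0.944 in that fit.

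Summed markers of some other cell types followed the order of Klf9 in part, in the same or the opposite direction. Endothelial markers, 8 of 8 in the table and none at 0, summed to 345, 181 and 206 CPM in the model libraries and to 304, 397 and 273 CPM under DMDD liposome, and model replicate 1 was again with the DMDD liposome group. The endothelial marker with the highest level, Pecam1, measured 94.5, 48.8 and 80.6 CPM against 81.2, 92.1 and 85.6 CPM. There model replicate 3 lay near the DMDD liposome group, unlike in Klf9. Epithelial tumor cell markers were ordered the other way, at 3920, 6540 and 6140 CPM against 4040, 3390 and 4530 CPM. So were mast cell markers, at 20.3, 81.3 and 80.4 CPM against 4.6, 11.5 and 19 CPM. The part of any of these cell types in the Klf9 level was not tested.

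**Figure D1:**
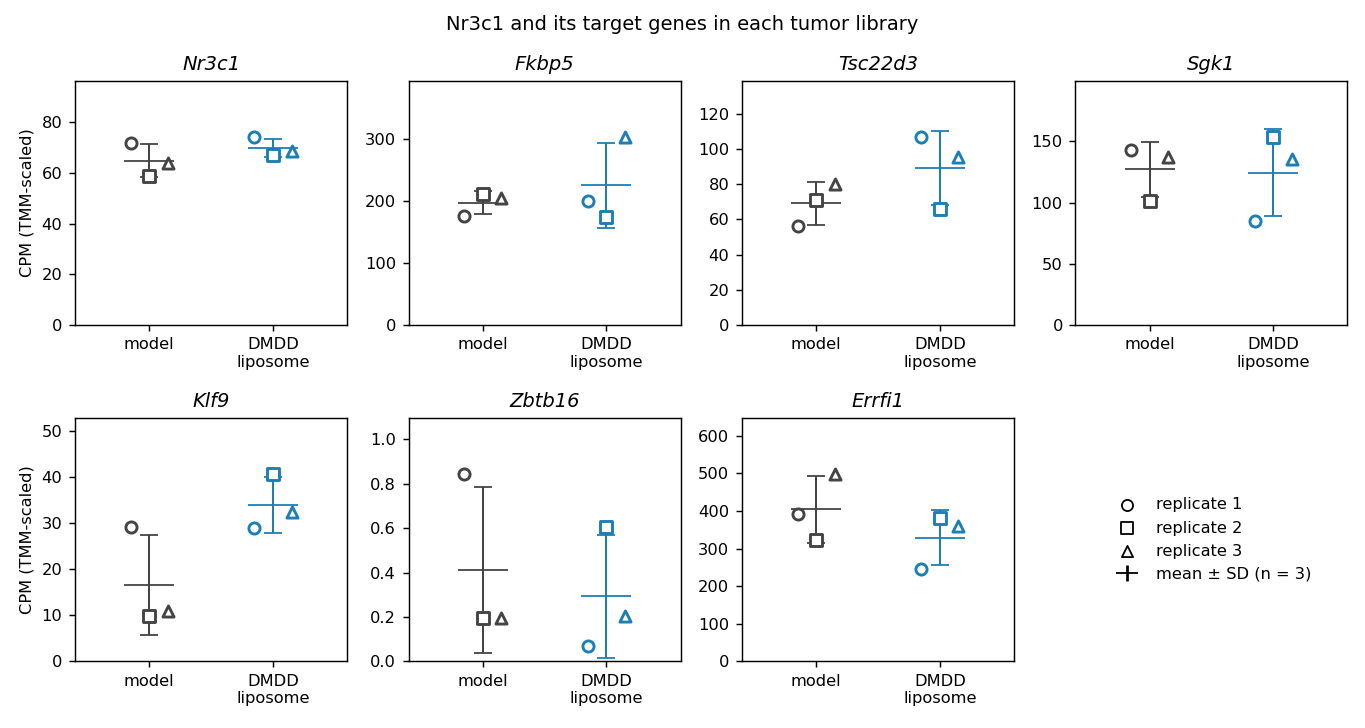
CPM of each of the 7 genes in the 3 model and 3 DMDD liposome libraries, with symbols for the replicate number and bars for the group mean and SD. Klf9 is low in model replicates 2 and 3 (9.87 and 10.9 CPM) and at 28.9 to 40.6 CPM in the other 4 libraries, while Nr3c1 lies between 58.9 and 74.1 CPM throughout.

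**Figure D2:**
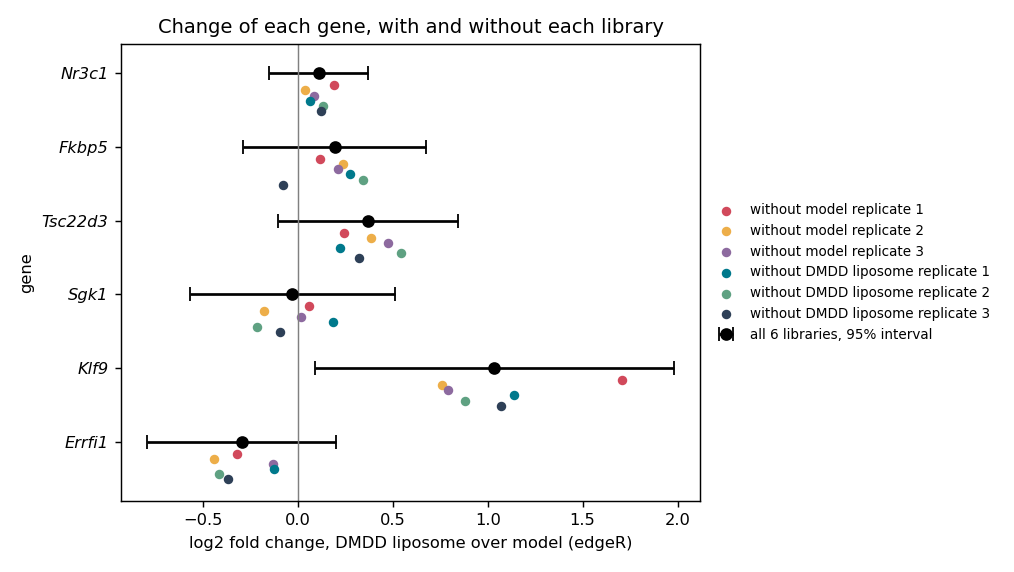
Log2 fold change of DMDD liposome over model from edgeR for the 6 genes tested, with the 95% interval over all 6 libraries (black) and the value without each library (colored). Klf9 moves from 1.03 to 1.71 without model replicate 1, Fkbp5 crosses 0 without DMDD liposome replicate 3, and the Sgk1 values lie on both sides of 0.

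Zbtb16 encodes PLZF, a zinc finger repressor that glucocorticoids induce strongly in many tissues. The model libraries held 11, 3 and 3 counts of it and the DMDD liposome libraries 1, 8 and 3, or 0.0708 to 0.843 CPM. Of the 6 libraries 4 were at or under 3 counts, the low-count filter left the gene out of the test, and a difference between the groups was not detectable at this depth.

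Levels of different genes can be set side by side per gene length, in the FPKM that the authors deposited. Errfi1 was highest, at 78.1 to 150 FPKM over the 6 libraries. Sgk1 (21.4 to 37.3 FPKM), Fkbp5 (26.1 to 46.5 FPKM) and Tsc22d3 (20.3 to 39.6 FPKM) followed, with ranges that overlap one another and lie below that of Errfi1. Nr3c1 came next at 9.01 to 11.6 FPKM, inside the range of Klf9 (3.03 to 12.3 FPKM), and Zbtb16 was last at 0.0138 to 0.160 FPKM. Nr3c2, which encodes the related mineralocorticoid receptor that also binds corticosterone, stood at 0.115 to 0.444 FPKM, below Nr3c1 in every library.

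**Figure D3:**
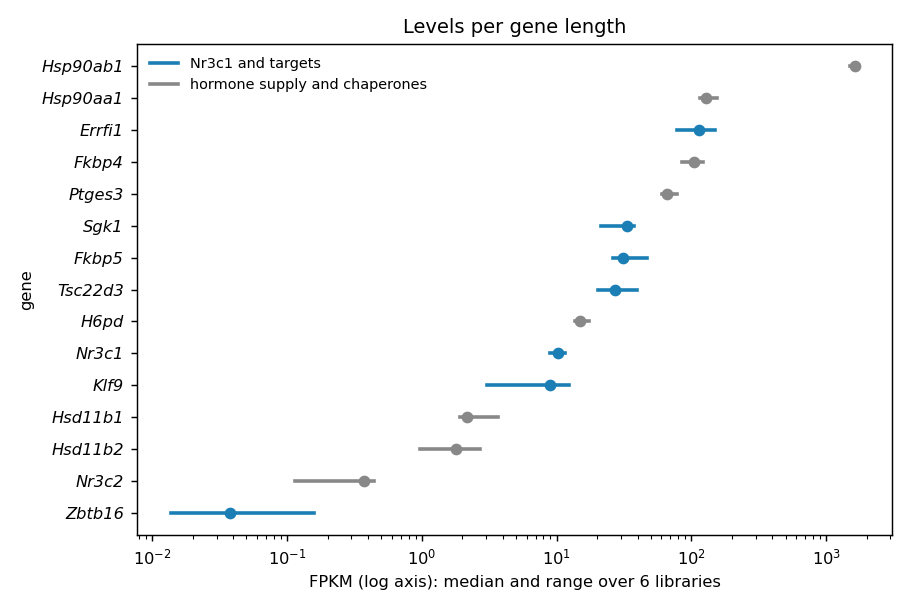
FPKM on a log axis for the 7 genes (blue) and for hormone enzymes, the mineralocorticoid receptor gene and chaperone genes (grey), as the median (dot) and range (line) over the 6 libraries. Errfi1 tops the receptor's targets at 78.1 to 150 FPKM, and Zbtb16 has the lowest median, with a range of 0.0138 to 0.160 FPKM that overlaps that of Nr3c2.

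The 7 genes did not vary as one across the libraries. Each gene's log2 CPM was centred on its mean over the 6 libraries, and likeness was measured as the root mean square difference between centred values, as a description only. The closest pair was Sgk1 and Errfi1, at 0.18 log2 units, both lowest in DMDD liposome replicate 1 at a centred log2 CPM of -0.54 each. Fkbp5 and Tsc22d3 followed at 0.26, both above their mean in DMDD liposome replicate 3 and below it in DMDD liposome replicate 2. Klf9 was at least 0.71 from every other member. This measure also grows with how much a gene varies. Over the 6 libraries the SD of Klf9 was 0.86 log2 units, against 0.12 for Nr3c1. The distances of Klf9 therefore do not show that it ordered the libraries differently.

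**Figure D4:**
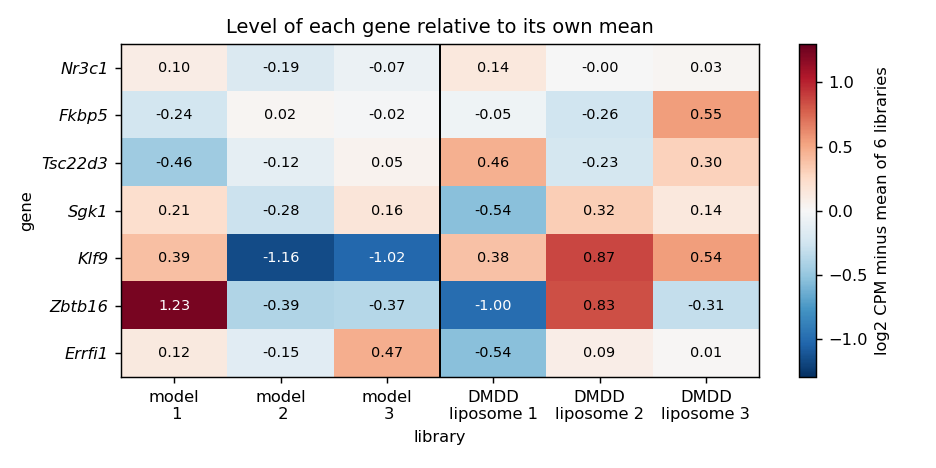
Log2 CPM minus the gene's mean over the 6 libraries, by gene (rows) and library (columns), on a color scale from low (blue) to high (red). Sgk1 and Errfi1 share their lowest library, DMDD liposome replicate 1 at -0.54, and Klf9 stands at -1.16 and -1.02 in model replicates 2 and 3.

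Among 9534 other named genes with a mean of at least 10 CPM, the patterns most like that of Klf9 were those of Thbs1, which encodes the matrix protein thrombospondin 1, and Rbpms, an RNA-binding protein gene, at 0.17 and 0.18 log2 units. Both were low in model replicates 2 and 3, with centred values of -1.06 and -1.08 for Thbs1 and -0.94 and -0.88 for Rbpms. Nearest to Nr3c1 were Ylpm1 and Ap4s1 (0.020 and 0.025), and nearest to Fkbp5 were the interferon-inducible gene Ifi27 and the phosphatase gene Mtm1 (0.037 and 0.070). Near Tsc22d3 was Zfp790 (0.090), and nearest to Sgk1 were Ppm1l and Mmp19 (0.064 and 0.075). For Errfi1 they were Tiparp and Ndrg1 (0.070 and 0.088), both highest in model replicate 3, as Errfi1 was. With 6 libraries and 9534 genes, close matches of this kind are common. The genes were picked for their likeness, so a shared high or low library follows from the choice. The distances also depend on how much a member varies (SD 0.12 log2 units for Nr3c1, 0.86 for Klf9) and are not comparable between members.

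The supply of hormone to the receptor depends on enzymes of the tissue. Of 12 genes of hormone supply and binding, 10 were in the table and 9 tested, and edgeR called 0 of them. At an unadjusted p under 0.05 the count was 0 of 9, against 7.65% of all genes tested. The median log2 fold change was 0.10, and it took a negative sign in some alternatives, down to -0.20 without DMDD liposome replicate 2. Hsd11b1, which regenerates active hormone, was at 54 to 107 counts per library, and H6pd, which feeds it NADPH, at 13.6 to 17.4 FPKM. Hsd11b2, which inactivates the hormone, had the smallest p of the list. It had 45, 31 and 28 counts in the model group against 68, 42 and 54 after DMDD liposome, and in CPM the groups overlapped, at a log2 fold change of 0.68 ± 0.36 (edgeR adjusted p = 0.676). Srd5a1, a steroid reductase gene, and Star, whose product brings cholesterol into mitochondria, stood at -0.48 ± 0.31 and -0.32 ± 0.23 (edgeR adjusted p = 0.735 and 0.769).

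Cyp11a1, which cuts cholesterol to begin steroid synthesis, was left out by the low-count filter. The model libraries held 4, 53 and 105 counts of it and the DMDD liposome libraries 8, 0 and 3, and model replicates 2 and 3 stood apart from the other 4 libraries. Mast cell markers, 6 of 6 in the table and none at 0, were high in the same libraries: they summed to 20.3 to 81.3 CPM in the model group, where replicates 2 and 3 were the high ones, and to no more than 19.0 CPM in the DMDD liposome group. Their part in the Cyp11a1 counts was not tested.

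The chaperones that hold the receptor ready for hormone differed little. All 14 were tested, 6 with a positive and 8 with a negative log2 fold change, from -0.19 to 0.21 with a median of -0.01. None was called by edgeR, and 0 of the 14 had an unadjusted p under 0.05, against 7.65% of all genes tested. Without overlap between the groups, 1 was higher in DMDD liposome (Hspa4, 318 to 337 CPM against 339 to 374 CPM; 7.21% of all genes) and 1 lower (Hsp90ab1, 4137 to 4350 CPM against 3849 to 4085 CPM; 5.66%). Hsp90aa1, the inducible HSP90, averaged 412 ± 26.7 CPM in the model group against 475 ± 52.6 CPM (log2 fold change 0.21 ± 0.12, edgeR adjusted p = 0.713). Fkbp4, whose product FKBP52 competes with FKBP51 and favors hormone binding, stood at 0.20 ± 0.13 and the phosphatase gene Ppp5c at -0.19 ± 0.16. Reads of HSP90 genes may be shared with near-identical copies, and how the counting split them is not stated.

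Of 16 coregulators, all tested, edgeR called 0 and 1 had an unadjusted p under 0.05, a share near the 7.65% of all genes tested, and the median log2 fold change was -0.06. That gene was Ncoa3, a coactivator of nuclear receptors, at 70.2, 45.8 and 48.5 CPM in the model libraries and 75.5, 66.7 and 79.5 CPM in the DMDD liposome libraries. As for Klf9, model replicates 2 and 3 were the lowest libraries, and model replicate 1 fell inside the DMDD liposome range. Its log2 fold change was 0.43 ± 0.18 (edgeR adjusted p = 0.641). Nrip1, a corepressor, stood at 0.30 ± 0.19, and the acetyltransferase gene Ep300 at -0.13 ± 0.09 with no overlap between the groups (109 to 114 CPM against 97.9 to 108 CPM), the 1 such coregulator of 16 (12.9% of all genes tested).

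Beyond the 7 genes, 34 further genes known to be induced by glucocorticoids in some tissue were listed, of which 32 were in the table and 29 tested. Earlier results of these data were known when the list was made, among them the high values of Mertk and Pdk4 in DMDD liposome, so its counts are no independent evidence of a direction. edgeR called 0 of the 29, while 7 (24.1%) had an unadjusted p under 0.05 and were higher in DMDD liposome, against 4.34% of all genes tested, and 0 were lower, against 3.31%. The median of the 29 was -0.03, with 14 positive and 15 negative, beside 0.01 over all genes, and it ran from -0.16 to 0.12 over the alternatives. Without overlap between the groups, 6 of the 29 were higher in DMDD liposome (7.21% of all genes tested) and 0 lower (5.66%).

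By the smallest p, these were led by Mertk, the receptor with which macrophages take up dying cells, by Pdk4, a brake on pyruvate dehydrogenase, and by Glul, the glutamine synthetase gene. Mertk measured 7.13, 6.13 and 4.99 CPM in the model libraries and 18.1, 16.3 and 23.0 CPM in the DMDD liposome libraries (edgeR adjusted p = 0.603). Pdk4 had 6, 13 and 10 counts against 58, 155 and 78 (edgeR adjusted p = 0.603). In both, every DMDD liposome library lay above every model library. Macrophage and monocyte markers, 10 of 10 in the table and none at 0, separated the groups in the same direction, at 2530, 1900 and 1370 CPM against 3540, 2650 and 2840 CPM, and their part in the Mertk level was not tested. Glul measured 62.9, 60.6 and 44.1 CPM against 90.1, 96.5 and 77.3 CPM, a log2 fold change of 0.66 ± 0.16 (edgeR adjusted p = 0.626).

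The other 4 were named after their values were seen. Rgs2, a regulator of G protein signaling, lay at 32.7, 25.0 and 20.0 CPM in the model group against 44.0, 38.8 and 34.2 CPM. Foxo3, a transcription factor of stress and atrophy programs, lay at 62.2 to 76.4 CPM against 85.6 to 87.4 CPM. Tgm2, a transglutaminase gene, lay at 286 to 379 CPM against 391 to 708 CPM. Pik3r1, a regulatory subunit of PI3 kinase, lay at 30.5 to 58.0 CPM against 52.1 to 74.0 CPM, and it alone of the 7 overlapped. None of these 4 passed over all genes (edgeR adjusted p from 0.626 to 0.629).

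Without model replicate 1, edgeR called 3 of the 30 induced targets then tested, all higher in DMDD liposome, against 0.327% of genes called higher in that fit. They were Mertk, Lcn2 and Nedd9, named after their values were seen. The list was made with earlier results of these data known, so this count is no independent evidence of a direction either. Lcn2, which encodes lipocalin 2, measured 752, 375 and 381 CPM in the model libraries and 688, 898 and 714 CPM in the DMDD liposome libraries. Nedd9, a scaffold protein gene of cell adhesion, measured 118, 46.4 and 52.5 CPM against 85.1, 95.7 and 81.5 CPM. In both, as in Klf9, model replicate 1 lay with or above the DMDD liposome libraries, and over all 6 libraries neither was called (edgeR adjusted p = 0.655 and 0.858). Both were named because they were called only without that library. Such a choice favors this order, so the likeness to Klf9 is no separate evidence.

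Inflammatory genes that glucocorticoids are known to hold down went in both directions. Of 18 listed, 16 were tested, with 10 positive and 6 negative log2 fold changes and a median of 0.09. The sign of that median was not stable: it was -0.50 without DMDD liposome replicate 2, -0.18 without model replicate 2 and -0.27 by limma-voom. edgeR called 0, and at an unadjusted p under 0.05 it took 2 higher (4.34% of all genes) and 2 lower (3.31%). Cxcl1, a chemokine gene for neutrophils, measured 61.0, 32.5 and 54.6 CPM in the model libraries and 8.43, 26.4 and 10.8 CPM in the DMDD liposome libraries, a log2 fold change of -1.70 ± 0.44 (edgeR adjusted p = 0.626). Csf3, which encodes the granulocyte growth factor G-CSF, measured 77.3, 87.2 and 260 CPM against 38.9, 62.0 and 47.9 CPM. In both genes every DMDD liposome library was below every model library. They were the 2 of the 16 lower without overlap (12.5%, against 5.66% of all genes tested). Neutrophil markers, 8 of 8 in the table and none at 0, summed to 196 to 246 CPM in model and 106 to 178 CPM in DMDD liposome. The part of these cells in either level was not tested.

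Of the genes of that list with positive values, Icam1, which encodes an adhesion molecule for leukocytes, was at 28.4, 20.0 and 19.1 CPM in the model group against 29.3, 35.5 and 41.0 CPM, which just avoided overlap, at 0.65 ± 0.20 (edgeR adjusted p = 0.626). It was the 1 of the 16 tested that was higher without overlap (6.25%), a share near the 7.21% of all genes tested. Vcam1, at an unadjusted p under 0.05 and named after its values were seen, measured 165, 129 and 119 CPM against 240, 159 and 401 CPM, so that its groups overlapped, and edgeR did not call it (adjusted p = 0.626). Sele, another adhesion molecule gene, was left out by the low-count filter, with 2, 1 and 8 counts against 6, 0 and 16. Il12b, also of that list, was left out too and leaned the other way, with 7, 8 and 9 counts against 0, 2 and 4. The endothelial markers whose values stand beside Klf9 summed to 181 to 345 CPM in the model group against 273 to 397 CPM. Their part in the levels of Icam1, Vcam1 and Sele was not tested.

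**Figure D5:**
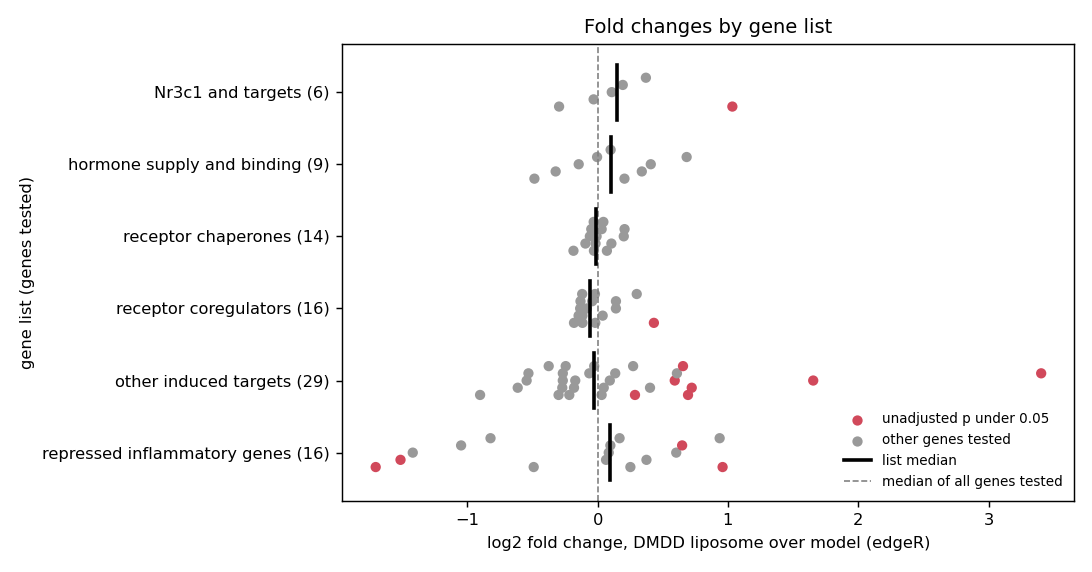
Log2 fold change of DMDD liposome over model from edgeR for each tested gene of the receptor set and of the 5 related lists, with the list median (black bar) and the median of all genes tested (dashed). Red points have an unadjusted p under 0.05, and 7 of the 29 other induced targets do so on the higher side while the list median is -0.03.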

How the data were processed

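Per the labels' protocols, RNA came from tumors (Trizol) and libraries from an NEBNext Ultra kit. The sample descriptions call the animals rats, but the organism field, the strain and the gene symbols are those of mouse. Groups and replicate numbers come from those descriptions. One table held every value: whole-number counts of reads for each gene, per the file headers, the signal left after the authors scaled each library by its size factor, and FPKM deposited by the authors. The log2 fold changes, p-values and adjusted p-values of the authors are for model over DMDD liposome, and the submitters' processing notes name DESeq2 and genome build mm9. The sources used here do not give the aligner, counter, annotation or strandedness.

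The deposited counts went into edgeR 4.0.16 under R 4.3.3 (filterByExpr, minimum count 10 and minimum total 15; TMM; quasi-likelihood, two-sided) over all 6 libraries, with Benjamini-Hochberg adjustment over the 12891 genes tested and a threshold of 0.05. Standard errors and 95% intervals come from the quasi-likelihood F statistic. Log2 CPM used a prior count of 2. The alternatives were DESeq2 1.42.0 (its test and its size factors), limma-voom 3.58.1 with sample quality weights, no filter, a replicate block, a threshold of 0.01 and leaving out each library. DESeq2 without model replicate 1 was added after seeing the data. The test was checked on simulated data.

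The 7 genes, the 5 related gene lists and the marker lists were chosen with earlier results of these data known. Genes named are the 7, the 3 of each related list with the smallest p, the 2 nearest in pattern to each tested member, and any gene said to be named after its values were seen. Cyp11a1, Hsd11b1, H6pd, Nr3c2, Sele, Il12b, Pecam1, Hsp90ab1, Hspa4, Dusp1, Mt1, Mt2 and Per1 fall outside this rule and were also named after their values were seen. Not every gene that the rule takes is reported here. Marker lists of the other cell types checked (macrophages, B cells, fibroblasts, pericytes, fat cells and epidermal keratinocytes) summed in the model libraries to 1370 to 2530, 0.394 to 1.29, 3960 to 7340, 215 to 308, 38.4 to 44.8 and 7.97 to 224 CPM. In the DMDD liposome libraries they summed to 2650 to 3540, 1.21 to 1.77, 3860 to 10600, 314 to 730, 41.8 to 131 and 8.16 to 12.3 CPM. Promoter sequences are RefSeq's, on GRCm38.p6.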

Additional observations from a re-analysis of the deposited data

How the results depend on the processing

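Counts of called genes moved most: edgeR called 0 with all libraries, between 0 and 112 without 1 library (112 without model replicate 1), DESeq2 called 59, and DESeq2 without model replicate 1 called 867. The log2 fold change of Klf9 lay between 0.76 and 1.71 without 1 library and was called without model replicate 1 by edgeR (1.71) and DESeq2 (1.70). Sgk1 lay between -0.21 and 0.18 without 1 library and at 0.0543 in DESeq2 without model replicate 1, and Fkbp5 between -0.0795 and 0.34. Nr3c1, Tsc22d3 and Errfi1 kept their direction and stayed uncalled in all 12 alternatives each. The cause was not tested for any of these. For Zbtb16, the log2 ratio of group means of -0.49 went to 0.59 without model replicate 1, to 0.57 in DESeq2 without it and to -1.58 without DMDD liposome replicate 2, on 1 to 11 counts per library. The hormone supply median of 0.10 went to -0.20, and that of the inflammatory genes from 0.09 to -0.50, without DMDD liposome replicate 2. The latter was also negative without model replicate 2 and by limma-voom (-0.18 and -0.27).

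With the replicate number as a block, edgeR called 0 genes and Klf9 stood at 1.20 (adjusted p = 0.501). Same-numbered libraries correlated in their deviations from the group means at 0.088, 0.11 and 0.12. Each library correlated best with its own number, which is at most a weak hint of pairing from the data. Deviations within a group of 3 are tied to one another, so such an order can also arise by chance. The numbers were not treated as pairs, because 1 of the 3 correlations was under 0.1 and the labels tie no number to an animal or batch.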

Other observations

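Several genes of the induced list varied more between libraries of one group than between the groups. Dusp1, which encodes a phosphatase that switches off MAP kinases and is also an immediate early gene, measured 136, 43.5 and 52.5 CPM in the model libraries and 16.1, 142 and 37.7 CPM in the DMDD liposome libraries. The metallothionein gene Mt2 measured 193, 111 and 398 CPM against 66.8, 201 and 191 CPM, and Mt1 followed the same order in the model group, at 209, 133 and 335 CPM. Mt2 and Dusp1, like Sgk1 and Errfi1, had their lowest value in DMDD liposome replicate 1. This was not particular to induced genes. The repressed inflammatory genes had a mean centred log2 CPM of -0.668 in that library, and the induced list -0.177. The induced list was nearly as low in model replicate 2, at -0.168, so its value does not set that library apart. Its largest departure was 0.374, in DMDD liposome replicate 2. Per1, a clock gene with receptor elements in its promoter, was steadier, at 51.5, 55.3 and 53.4 CPM in the model libraries and 45.4, 67.8 and 44.2 CPM in the DMDD liposome libraries.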
